A study of Mus musculus with 13 samples.

Results

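MicroRNAs of early-stage T-ALL, T-cell acute lymphoblastic leukaemia, were compared with those of CD4+CD8+ double-positive (DP) thymocytes in mice. The early-stage group (ES) holds 3 arrays of C57BL/6 spleen cells, sorted as CD4+CD8+, from bone marrow chimeras whose marrow had been transformed with N1ICD, the active intracellular part of Notch1. The control group holds 3 arrays of CD4+CD8+ cells sorted from C57BL/6 thymus, with no N1ICD. The series' design text gives 3 biological replicates for each group. The early-stage cells come from spleen and the DP cells from thymus, so tissue and leukaemia cannot be told apart. Each array measured 1 mouse RNA sample with Cy3 on probes for 1122 mouse miRNAs of miRBase release 18. Members of the comparison are the 232 mouse miRNAs that the scanner software marked as detected on all 3 ES arrays or on all 3 DP arrays. Of these, 137 were detected on all 6 arrays, 92 on all 3 DP arrays but fewer than 3 ES arrays, and 3 on all 3 ES arrays but fewer than 3 DP arrays.

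A miRNA is a short RNA that guides an Argonaute protein to messenger RNAs which pair with its seed, the stretch of bases near its 5′ end, and lowers the output of those messengers. Many miRNAs come in families that share a seed or in clusters cut from 1 transcript. In the thymus, the miR-181 family sets the sensitivity of T-cell receptor signalling and is abundant at the DP stage, while miRNAs of the miR-17-92 cluster favour growth and survival of lymphoid cells and miR-21 is known as a growth-promoting miRNA in many cancers.

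Mature sequences were available from RefSeq (GRCm38.p6) for 171 of the 232 members, 161 matched by mature name and 10 by gene synonym. The seed, bases 2 to 8 from the 5′ end, is in capitals. The first set holds members that were higher in early-stage T-ALL, which begin with 10 different seeds.
miR-21-5p: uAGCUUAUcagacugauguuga
miR-721: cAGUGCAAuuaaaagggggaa
miR-342-3p: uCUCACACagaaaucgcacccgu
miR-370-3p: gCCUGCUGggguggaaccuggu
miR-211-3p: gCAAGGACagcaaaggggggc
miR-494-3p: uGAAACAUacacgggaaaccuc
miR-3081-5p: gACUGGAGcuuggagcggugagc
miR-5126: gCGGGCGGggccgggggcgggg
miR-29b-3p: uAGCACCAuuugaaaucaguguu
miR-101b-3p: gUACAGUAcugugauagcu
The next set holds families with at least 2 members lower in early-stage T-ALL, in the order miR-181, miR-30, miR-15/16, miR-26 and let-7 (2 examples of 8 members), then miR-128-3p, which has its own seed.
miR-181a-5p: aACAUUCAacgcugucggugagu
miR-181b-5p: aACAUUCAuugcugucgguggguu
miR-181c-5p: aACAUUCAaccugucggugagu
miR-181d-5p: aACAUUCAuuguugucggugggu
miR-30a-5p: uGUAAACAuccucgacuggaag
miR-30c-5p: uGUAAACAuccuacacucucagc
miR-30e-5p: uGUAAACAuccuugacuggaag
miR-15a-5p: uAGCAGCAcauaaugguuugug
miR-15b-5p: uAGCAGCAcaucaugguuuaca
miR-16-5p: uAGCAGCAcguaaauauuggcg
miR-195-5p: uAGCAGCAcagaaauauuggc
miR-26a-5p: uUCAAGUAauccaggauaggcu
miR-26b-5p: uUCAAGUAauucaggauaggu
let-7a-5p: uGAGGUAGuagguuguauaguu
let-7g-5p: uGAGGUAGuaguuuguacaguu
miR-128-3p: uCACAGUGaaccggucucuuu
The family of miR-130 and miR-301 is shown because it carries the seed of miR-721 and moved the other way.
miR-130a-3p: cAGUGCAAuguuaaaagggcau
miR-130b-3p: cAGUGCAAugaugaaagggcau
miR-301a-3p: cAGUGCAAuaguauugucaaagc

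The arrays differed in quality within the leukaemia group. ES 1 detected 148 mouse miRNAs, ES 2 238 and ES 3 281, while DP 1, DP 2 and DP 3 detected 240, 268 and 243. The means of 222 ± 67.9 (SD, n = 3) and 250 ± 15.4 (SD, n = 3) differed by less than the spread of the ES arrays (exact permutation test, two-sided, p = 0.7, where the smallest possible is 0.1). The negative control spots of ES 1 had an SD of 18.7 intensity units against at most 7.11 on the other 11 primary arrays. No spot was saturated. The number of arrays, 3 a group, limits the precision of every value. ES 3 stood apart by its own miRNAs: miR-223-3p, a miRNA of myeloid cells, had a log2 scaled signal of 3.25 on ES 3 against -5.60 on ES 1, -6.64 on ES 2 and -6.75 to -6.12 on the DP arrays. Results are therefore given without ES 1 or ES 3 where they rest on either. miR-181a-5p and miR-128-3p, which are abundant in DP thymocytes, and miR-142-3p, which is found in all blood cells, were detected on all 6 arrays, and no miRNA on the array tests the CD4 and CD8 labels themselves.

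**Figure D1:**
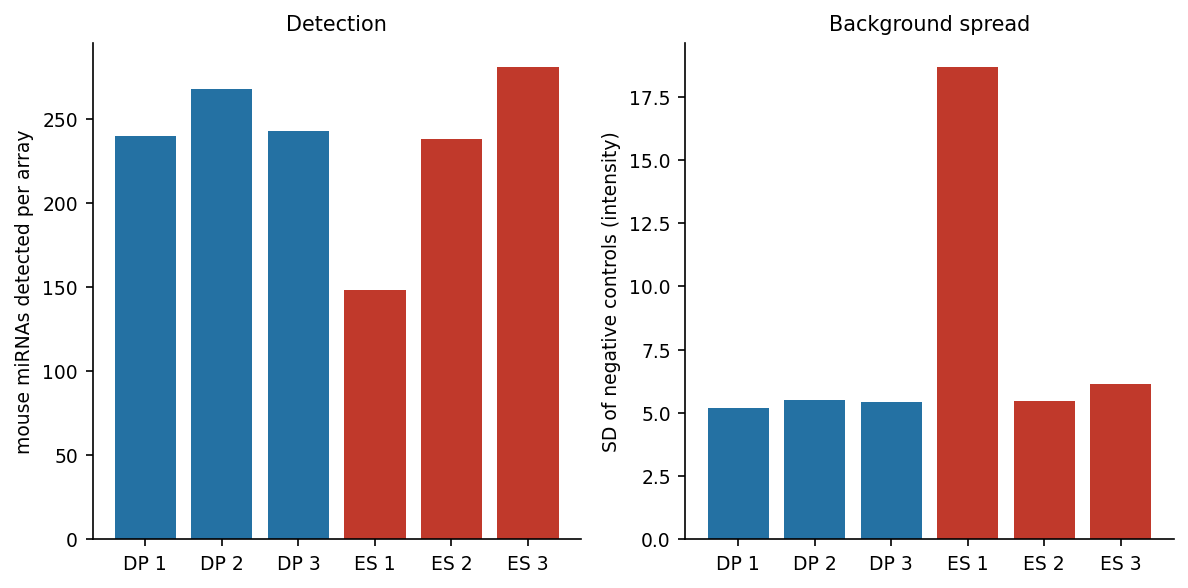
Mouse miRNAs detected per array (left) and SD of the negative control spots in intensity units (right) for the 3 DP arrays (blue) and 3 ES arrays (red). ES 1 has the fewest detected miRNAs, 148, and a control SD of 18.7.

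Values below are log2 signals scaled to each array's 75th percentile over 133 mouse miRNAs detected on all 12 primary arrays, so a value of 0 equals that percentile, and the floor is -7.77. A difference is ES minus DP, and a miRNA is called higher or lower at an adjusted p under 0.05 in limma over the 268 mouse miRNAs tested. Over all tested miRNAs 41.4% were called, 11.2% higher and 30.2% lower, with a median difference of -0.19. Among the 137 members detected on all 6 arrays, 22 were higher, 37 were lower and 78 were not called, and the median difference was 0.005. The ES and DP arrays did not overlap for 78 of these 137, beside 53.7% of all tested miRNAs. The split of calls depends on the scaling: 30 higher and 81 lower as given, 52 and 68 when scaled over miRNAs with spots well above background, 61 and 66 after quantile normalization, 65 and 73 in the authors' deposited table, and 96 and 43 when scaled over all mouse miRNAs, a setting that moved the median of all tested to 0.52. Since the signal is that of a sorted cell mixture, fewer cells with a miRNA and less of it per cell cannot be told apart.

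**Figure D2:**
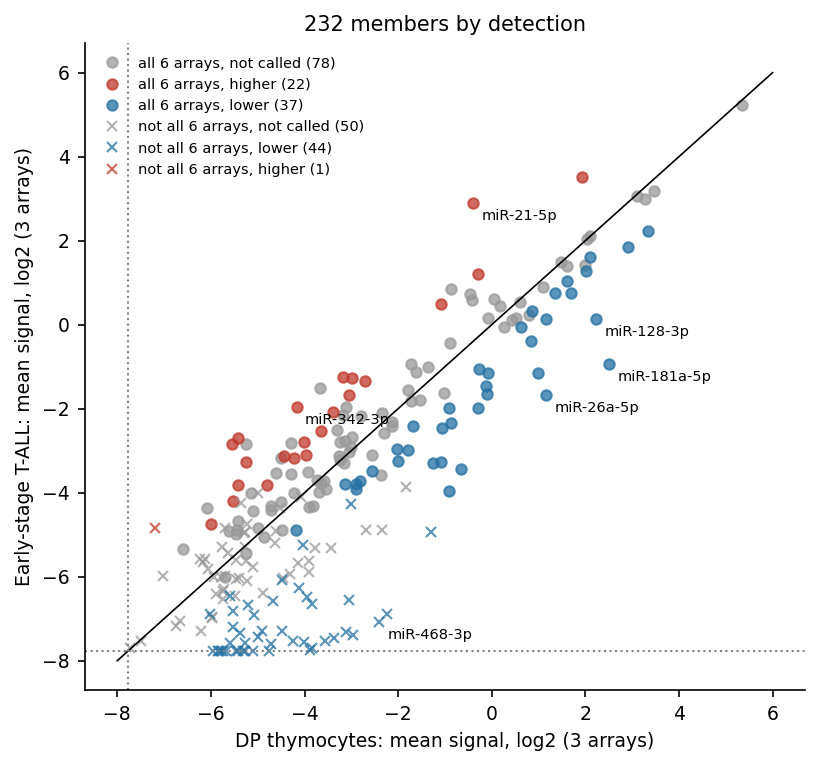
Mean log2 scaled signal of each of the 232 members in early-stage T-ALL against DP thymocytes (3 arrays each); circles were detected on all 6 arrays and crosses were not, red is called higher, blue called lower, grey not called. The solid line marks equal signal and the dotted lines the floor at -7.77; the 44 blue crosses lie mostly near the floor in early-stage T-ALL.

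miR-21-5p had the largest rise of the members detected on all 6 arrays. Its log2 scaled signal was 2.44, 2.47 and 3.81 on ES 1, ES 2 and ES 3, and -0.27, -0.36 and -0.57 on DP 1, DP 2 and DP 3. The lowest ES array thus lay above the highest DP array. The difference was 3.31 ± 0.43 (SE), 9.91-fold higher, with an adjusted p of 0.000148. It was 3.54 without ES 1 and 2.86 without ES 3, both called. DN thymocytes, the CD4-CD8- stage, had a mean of 1.82 ± 0.14 (SD, n = 3) and late-stage T-ALL (LS) one of 2.31 ± 0.79 (SD, n = 3), against 2.91 ± 0.78 in ES and -0.40 ± 0.15 in DP.

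miR-342-3p, a miRNA of lymphocyte maturation, was at -2.38, -2.33 and -1.15 on the ES arrays and between -4.24 and -4.09 on the DP arrays. The groups did not overlap, and the difference was 2.21 ± 0.38 (SE, adjusted p = 0.00106). The other members of the lymphocyte maturation list were not called: miR-142-3p (-0.29, adjusted p = 0.39), miR-142-5p (-0.37, 0.39) and miR-150-5p (-2.02, 0.19). miR-342-5p, the opposite arm to miR-342-3p, is no member, as it was detected on 2 ES and 0 DP arrays. It lay near the floor in both groups and was not called (-0.07, adjusted p = 0.82). miR-150-5p, a miRNA of mature lymphocytes, ranged from -6.98 on ES 2 to -1.45 on ES 3, a spread that took in all DP arrays (-1.93 to -1.68). Without ES 3 it was called lower (-3.22, adjusted p = 0.0382), and without ES 1 it was not called.

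miR-721 and miR-714 rose by similar amounts. miR-721 was at -2.66, -3.22 and -2.22 on the ES arrays and at -5.16, -5.09 and -5.99 on the DP arrays, a difference of 2.71 ± 0.53 (SE, adjusted p = 0.00231). miR-714 was at -2.89, -2.46 and -3.19 against -5.17, -5.18 and -6.28, a difference of 2.70 ± 0.52 (SE, adjusted p = 0.00201). Neither set of arrays overlapped, and both calls held when any 1 of the 12 arrays was left out.

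miR-370-3p and miR-494-3p, both encoded in the imprinted Dlk1-Dio3 region, were higher by 2.00 ± 0.54 (SE, adjusted p = 0.0139) and 1.56 ± 0.39 (SE, adjusted p = 0.0093). miR-370-3p was at -1.65 on ES 3 but -4.10 and -4.03 on ES 1 and ES 2, with the DP arrays between -5.42 and -5.06. Its difference was 1.19 without ES 3, and its call was lost without DP 3 (adjusted p = 0.0537). Of 12 other miRNAs chosen as markers of that region, 11 were detected on 0 ES arrays and 12 on 0 DP arrays. The 12 are not all of the region's miRNAs, so these counts do not show that the rest was undetected.

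miR-101b-3p and miR-29b-3p also rose. miR-101b-3p was at -4.18, -3.85 and -4.56 on the ES arrays and -5.50, -5.30 and -5.79 on the DP arrays, 2.52-fold higher (1.33 ± 0.24 SE, adjusted p = 0.00122). Its near relative miR-101a-3p, which is no member because it was detected on 2 ES and 0 DP arrays, was higher by 2.03 ± 0.57 (SE, adjusted p = 0.0161). miR-29b-3p rose by 1.36 ± 0.41 (SE, adjusted p = 0.0218), a call lost without DP 3. It was at -2.15, -1.64 and -0.26 on ES 1, ES 2 and ES 3 and at -2.49, -2.47 and -3.17 on the DP arrays. The size of the rise thus leans on ES 3. miR-29a-3p (0.46, adjusted p = 0.39) and miR-29c-3p (1.07, adjusted p = 0.21), which share its seed, were not called.

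Several further rises rested on few arrays. miR-211-3p (1.94), miR-5105 (1.72), miR-3081-5p (1.61) and miR-5126 (1.49) were each highest on ES 3, and each lost its call when at least 1 of the arrays was left out, DP 3 in all 4 and ES 3 in all but miR-5105. Without ES 3 the difference of miR-5105 was 1.02 and that of miR-3081-5p 0.91. miR-5109 was at 3.76, 3.23 and 3.55 on the ES arrays and 2.08, 2.04 and 1.65 on the DP arrays, and its call (1.59 ± 0.34 SE, adjusted p = 0.00345) held without any 1 array. Over the 22 rises, ES 3 was the highest ES array in 16, and 20 were still called higher without ES 1. 4 of the 22 names, miR-714, miR-5105, miR-5109 and miR-3096-5p, have no entry in the RefSeq gene table (GRCm38.p6). Of the 37 falls 0 lack one, and of the 78 members not called 9 do.

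**Figure D3:**
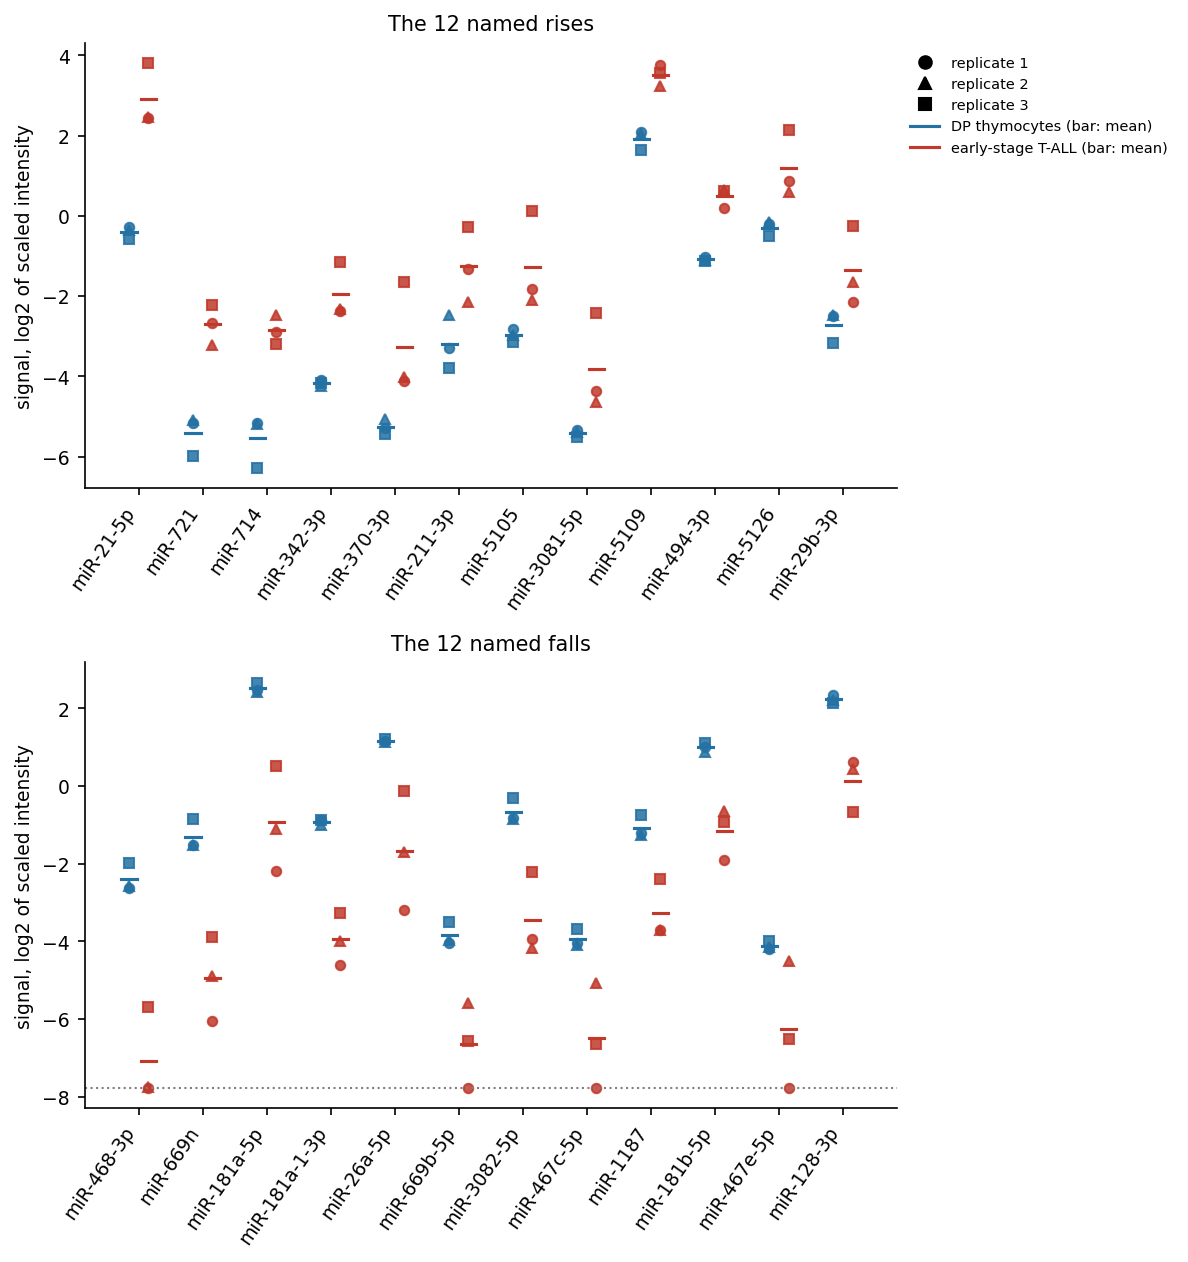
Log2 scaled signal per array of the 12 largest measured rises (top) and falls (bottom); blue is DP, red is early-stage T-ALL, the marker shape is the replicate and the bar is the group mean. The dotted line is the floor of -7.77; miR-21-5p lies between 2.44 and 3.81 on the ES arrays and below 0 on every DP array.

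All 4 members of the miR-181 family were lower in early-stage T-ALL, with a median difference of -2.10. miR-181a-5p, the family member best known for tuning T-cell receptor signalling, was at -2.18, -1.10 and 0.50 on ES 1, ES 2 and ES 3 and at 2.48, 2.41 and 2.66 on the DP arrays. The ES arrays were spread over more than the DP arrays, and no ES array reached the lowest DP array. The difference was -3.44 ± 0.56 (SE), 10.9-fold lower, with an adjusted p of 0.000669. It was -2.81 without ES 1 and -4.16 without ES 3, both called.

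The other 3 family members fell less. miR-181b-5p was lower by 4.44-fold (adjusted p = 0.000267), miR-181c-5p by 4.13-fold (adjusted p = 2.58e-05) and miR-181d-5p by 2.39-fold (adjusted p = 0.00226). All 4 calls held when any 1 array was left out. miR-181a-1-3p, the opposite arm of a miR-181a hairpin, fell with its partner, by 3.03 ± 0.34 on the log2 scale (SE, adjusted p = 5.21e-05). The DN mean of miR-181a-5p was -0.28 ± 0.14 (SD, n = 3) and the LS mean -0.33 ± 0.61 (SD, n = 3), beside -0.93 ± 1.35 in ES and 2.51 ± 0.13 in DP.

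All 5 members of the miR-30 family were lower, with a median of -1.34. miR-30c-5p was at -2.51, -2.36 and -2.12 on the ES arrays and -0.92, -0.86 and -0.85 on the DP arrays, a difference of -1.45 ± 0.18 (SE, adjusted p = 8.82e-05). miR-30e-5p fell by 1.34 ± 0.18 (SE, adjusted p = 0.000198), with its 3p arm, detected on 2 ES arrays, also lower by 1.23. The spread within each group was small beside the gap for both. miR-30a-5p (-1.59), miR-30b-5p (-1.06) and miR-30d-5p (-0.91) were called as well, and all 5 stayed called without ES 1.

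In the miR-15/16 family, whose members restrain cell division and survival, 4 of 5 were lower and the median was -1.11. miR-15b-5p was at 2.08, 2.33 and 2.29 on the ES arrays and 3.45, 3.30 and 3.29 on the DP arrays, a difference of -1.11 ± 0.17 (SE, adjusted p = 0.000603). miR-16-5p was at 1.66, 1.80 and 2.10 against 2.86, 2.91 and 2.96 (-1.06 ± 0.19 SE, adjusted p = 0.00122). For both, the highest ES array lay below the lowest DP array. miR-15a-5p (-0.93) and miR-195-5p (-1.91, or -1.31 without ES 1, detected on 2 ES arrays) were called, and miR-322-5p (-1.53, adjusted p = 0.20) was not, with -2.81 on ES 3 above every DP array. Without ES 3, miR-322-5p, which was detected on 1 ES array, was called lower (-2.96, adjusted p = 7.1e-05). The 3p arms miR-16-1-3p and miR-16-2-3p were detected on all 3 DP arrays and on 0 ES arrays.

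miR-26a-5p and miR-26b-5p, which share the seed UCAAGUA, were lower. miR-26a-5p was at -3.20, -1.69 and -0.12 on ES 1, ES 2 and ES 3 and between 1.14 and 1.20 on the DP arrays. It was lower on each ES array than on each DP array, but the 3 ES arrays differed among themselves by more than any 2 DP arrays. The difference was -2.84 ± 0.57 (SE, adjusted p = 0.00261). It was -2.08 without ES 1 and -3.61 without ES 3, both called. miR-26b-5p fell by 1.06 ± 0.27 (SE, adjusted p = 0.00902).

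miR-128-3p, a miRNA abundant in DP thymocytes, was at 0.62, 0.44 and -0.68 on the ES arrays and 2.34, 2.21 and 2.14 on the DP arrays. The groups did not overlap, and the fall was 2.10 ± 0.33 on the log2 scale (SE, 4.29-fold, adjusted p = 0.000633). Its mean was 1.77 ± 0.11 (SD, n = 3) in DN cells and 0.13 ± 0.44 (SD, n = 3) in LS, beside 0.13 ± 0.70 in ES and 2.23 ± 0.10 in DP.

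The let-7 family, which represses growth-promoting messengers such as those of Ras, showed small shifts that depend on the settings. 6 of 8 members were called lower with a median of -0.58, but all 6 turned slightly positive (0.05 to 0.29) when scaled over all mouse miRNAs, 1 was called when scaled over miRNAs well above background and 2 without ES 1. let-7a-5p was at 1.15, 1.55 and 1.15 on the ES arrays and 2.05, 1.92 and 2.06 on the DP arrays, a difference of -0.73 ± 0.17 (SE, adjusted p = 0.00584). let-7g-5p differed by -0.59, let-7b-5p by -0.68, let-7i-5p by -0.58, let-7d-5p by -0.54 and let-7f-5p by -0.49. The calls of the last 4 were lost when any 1 of at least 7 arrays was left out.

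The seed AGUGCAA occurred in members that moved in opposite directions. While miR-721 rose, miR-130a-3p was detected on all 3 DP arrays and 0 ES arrays (at least 2.20-fold lower), miR-301a-3p fell by 0.73 ± 0.18 (SE, adjusted p = 0.00824) and miR-130b-3p by 0.79 ± 0.27 (SE, adjusted p = 0.0374). The direction of miR-301a-3p turned to 0.053 when scaled over all mouse miRNAs, and the call of miR-130b-3p was lost when any of 7 arrays, including ES 3, was left out. miR-301b-3p (-0.56, adjusted p = 0.20) was not called.

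The growth-promoting miR-17-92 cluster and its paralogs made up 12 members, all detected on all 6 arrays, of which 0 were higher and 1, miR-25-3p, was lower. miR-25-3p was at 0.30, 0.42 and -0.32 on the ES arrays and 1.21, 1.12 and 1.18 on the DP arrays (-1.03 ± 0.20 SE, adjusted p = 0.00233). The other 11 had differences from -0.57 to 0.80 and a wide scatter on the ES side: miR-19b-3p was at 2.42, 2.71 and 1.02 on the ES arrays and 1.94 to 2.12 on the DP arrays. miR-20a-5p was at 1.85, 2.23 and 0.37 against 1.42 to 1.56. For both, ES 1 and ES 2 lay above all DP arrays and ES 3 below them, so that the mean differences were 0.005 and 0.010. The 95% interval of the miR-19b-3p difference is -0.80 to 0.81.

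**Figure D4:**
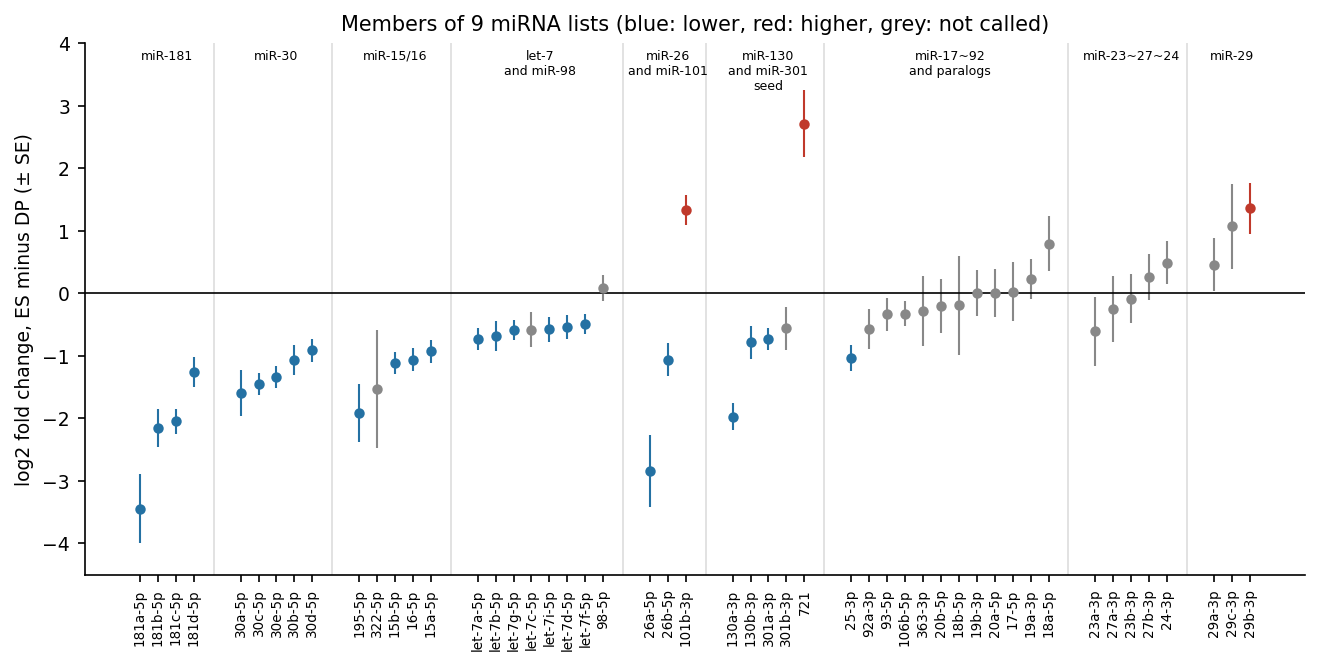
Log2 difference (ES minus DP, bars are SE of the fit) of members in 9 miRNA lists; blue is lower, red higher and grey not called. All 4 miR-181 and all 5 miR-30 members lie below 0, and 11 of 12 members of the miR-17-92 list are grey.

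The 5 members of the miR-23, miR-27 and miR-24 clusters had differences from -0.61 to 0.49 and 0 were called, although 1 was called higher without ES 1. Of 5 lymphocyte activation miRNAs tested, miR-21-5p was called and miR-155-5p (-2.21, adjusted p = 0.17), with values from -7.77 on ES 2 to -1.96 on ES 3, was not. Without ES 3, miR-155-5p was called lower (-3.68, adjusted p = 0.0112), and without ES 1 it was not called. All 9 names on the activation list were detected on ES 3, against 3 on ES 1, 2 on ES 2 and 4 on each DP array. Among those not tested, miR-146a-5p was at -1.80 on ES 3 and at the floor on the other ES and DP arrays. Of 5 miRNAs known to speed mouse T-ALL, 0 were higher and 1, miR-26a-5p, was lower. Of 9 known to slow it, 1 was higher, miR-29b-3p. The hypoxia miRNA miR-210-3p (-0.87, adjusted p = 0.32) and the 2 tested members of each of the miR-148 with miR-152 and the miR-34 with miR-449 families were not called. Without ES 3, miR-148a-3p (-3.87, adjusted p = 0.0102) and miR-34a-5p (-2.75, adjusted p = 0.0136) were called lower. Without ES 1 neither was called.

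Both arms of a hairpin were members in 27 pairs. Arms of miR-181a-1, miR-195, miR-30e, miR-16-1 and miR-16-2 were lower on both sides. Only the miR-181a-1 pair had both arms detected on all 6 arrays. In each of the other pairs the 3p arm became a member only through the DP arrays, so its direction was largely fixed. miR-16-5p is the same value in both miR-16 pairs. For miR-1839 the 3p arm was lower by 1.40 while the 5p arm, at 0.64, was not called, and for miR-7a the 5p arm was higher by 0.86 while the 3p arm, at -0.37, was not called. Genes within 10 kb of each other in GRCm38.p6 formed 17 clusters of members. miR-181c-5p and miR-181d-5p, miR-30b-5p and miR-30d-5p, miR-15a-5p and miR-16-1-3p, and miR-15b-5p and miR-16-2-3p are such neighbours that were both lower, while 0 of 6 arms of the miR-17-92 cluster placed there were called. The limit on the miR-16 3p arms holds here too.

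Among the 92 members detected on all 3 DP arrays but fewer than 3 ES arrays, 44 were called lower and 0 higher. They had to be lower on at least some ES arrays to enter this class, so the counts and the p-values of its members are a description. Of the 92, 44 were missing from ES 1 alone and 24 from all 3 ES arrays. 36 were well above background on no ES array, and for the 32 of them that reached it on at least 1 DP array the folds are lower bounds, computed against the dimmest signal well above background on each ES array. Without ES 1, 42 of the 92 were lower and 3 were higher.

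Many of these members carry names of the mouse miR-466, miR-467 and miR-669 groups, most of which lie in a repeated cluster within an intron of the Sfmbt2 gene. miR-672-5p, which is not of these groups, was at -3.28, -3.18 and -2.45 on the DP arrays, below -6.5 on every ES array, and at least 11.9-fold lower (adjusted p = 0.000114). miR-466m-5p was at least 10.4-fold lower, miR-466h-5p 9.53-fold, miR-669e-5p 8.75-fold, miR-466j 8.19-fold, miR-669k-5p 8.08-fold and miR-669o-5p 6.49-fold, each as a lower bound. miR-669n, measured on 2 ES arrays, was at -6.04, -4.89 and -3.88 against -1.53, -1.53 and -0.86 (-3.64 ± 0.52 SE, adjusted p = 0.000299). miR-468-3p was at -7.77, -7.76 and -5.68 against -2.62, -2.58 and -1.99 (-4.67 ± 0.58 SE, adjusted p = 0.000113), a difference of -5.36 without ES 3.

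On the array 61 miRNAs bear such Sfmbt2-type names (miR-297 included), of which 29 were tested, 16 were lower and 0 higher, with a median of -1.82. Without ES 1, 13 were lower and 2 were higher. Only 3 of the 29 were detected on all 6 arrays, and the other 26 passed through the DP arrays, where they are high, so the counts are a description. Of the 3, miR-466i-5p was called lower, while miR-467f (0.28, adjusted p = 0.37) and miR-669p-3p (0.41, adjusted p = 0.15) were not called. The 5p and 3p arms differed: miR-466h-5p fell while miR-466h-3p was at 0.16 and not called, miR-669f-5p was at least 4.53-fold lower while miR-669f-3p (-1.54, adjusted p = 0.21) was not called, and miR-466i-5p fell by 1.24 (adjusted p = 0.028) while miR-466i-3p was at -0.15 and not called. The arrays of miR-466i-5p overlapped between the groups, and its call was lost without any 1 of DP 1, DP 2, DP 3, ES 1 and ES 2. The probes of miR-466f-5p disagreed, with differences from -3.06 to 0.58. These miRNAs are near-identical copies, so their signals may not be independent of each other.

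A UGUGUG repeat was found in the mature strand of 10 of the 171 members with a sequence and in 28 of 1679 mature mouse sequences of the RefSeq table (1.67%). The motif was chosen after the values were seen. All 10 were called lower, with differences from -4.64 to -0.68, but 6 of them became members only through the DP arrays, so their direction was largely fixed. The 4 detected on all 6 arrays were miR-1187, miR-3082-5p, miR-574-5p and let-7b-5p. Of the 102 members with a sequence and without the repeat detected on all 6 arrays, 29 were lower and 17 higher. The call of let-7b-5p (adjusted p = 0.0439) depends on the settings, as given above. Without ES 1, 9 of the 10 were lower. 9 of the sequences follow, with the repeat in capitals, and let-7b-5p is the other. Overlapping repeats are joined.
miR-1187: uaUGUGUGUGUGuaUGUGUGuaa
miR-3082-5p: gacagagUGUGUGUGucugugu
miR-574-5p: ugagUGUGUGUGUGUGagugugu
miR-669n: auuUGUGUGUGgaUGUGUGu
miR-466j: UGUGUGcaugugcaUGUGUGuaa
miR-672-5p: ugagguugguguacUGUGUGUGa
miR-32-3p: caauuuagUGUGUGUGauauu
miR-206-3p: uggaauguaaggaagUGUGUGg
miR-294-3p: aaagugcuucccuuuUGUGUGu
miR-32-3p, which is named here because it holds the repeat, was at -2.47, -2.49 and -1.77 on the DP arrays and between -7.77 and -6.09 on the ES arrays, at least 17.5-fold lower (adjusted p = 8.62e-05). miR-574-5p was detected on all 6 arrays and fell by 1.68 ± 0.42 (SE, adjusted p = 0.00892), miR-3082-5p by 2.78 ± 0.48 (SE, adjusted p = 0.00106; -3.39 without ES 3) and miR-1187 by 2.19 ± 0.37 (SE, adjusted p = 0.000851). For all 10, DP 3 was the highest DP array, against 47 of the 161 members with a sequence and no repeat. Over the 10, the median of the group means was -1.77 in DP, -5.91 in ES, -4.79 in DN and -4.77 in LS; 6 of the 10 were selected by their signal in DP.

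Among these DP-only signals were miRNAs of other tissues. miR-206-3p, a miRNA of skeletal muscle, was detected on all 3 DP arrays and 0 ES arrays (at least 4.15-fold lower), and so was miR-294-3p, a miRNA of embryonic stem cells (at least 5.53-fold lower). Names of viral miRNAs on the same arrays did likewise: 8 were detected on each DP array and 2, 4 and 5 on ES 1, ES 2 and ES 3. Of the 8 found on all 3 DP arrays, 5 were on 0 ES arrays, and their median difference was -1.92 (from -4.19 to 0.54). What the muscle, stem cell and viral probes measured, and its part in the UGUGUG members, was not tested.

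miR-3472 was the single called member of the 3 detected on all 3 ES arrays but fewer than 3 DP arrays. It was at -4.75, -5.44 and -4.30 on the ES arrays and at -7.13, -6.68 and -7.77 on the DP arrays, at least 4.27-fold higher (adjusted p = 0.0022), and its LS mean was -3.63 ± 0.86 (SD, n = 3). It became a member only through the ES arrays, so its direction was largely fixed and its p-value is a description. miR-139-3p (1.04, adjusted p = 0.17) and miR-33-5p (0.25, adjusted p = 0.50) were not called.

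Of the members with the strongest signals, several were not called. miR-3963 was at 5.44, 5.13 and 5.15 on the ES arrays and 5.46, 5.13 and 5.44 on the DP arrays, a difference of -0.10 with a 95% interval that includes 0 (adjusted p = 0.65). miR-142-3p, a miRNA of all blood cells, was at 2.79, 2.61 and 3.57 against 3.38, 3.40 and 3.06, and its groups overlapped. miR-720 (-0.28), miR-5100 (-0.05) and miR-3968 (0.01) were not called either.

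The ES arrays varied more than the DP arrays. Over the 137 members detected on all 6 arrays the median SD was 0.58 in ES and 0.11 in DP, and the ES SD was the larger in 130. ES 3 was the highest ES array in 80 of the 137, ES 2 in 41 and ES 1 in 16. The fit shares 1 spread over all 4 groups, and fitted on the 6 arrays alone it called 12 higher and 23 lower of the 137.

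Marker miRNAs of other cells were uneven over the ES arrays. Of 5 myeloid and platelet markers the summed linear scaled signal was 9.53 on ES 3 and 0.03 to 0.07 on the other ES and DP arrays. Nearly all of the ES 3 sum came from miR-223-3p. miR-195-5p was also counted above in a seed family whose members restrain cell division. Its fall is therefore not read as a change in myeloid cells. miR-195-5p was called lower (-1.91, adjusted p = 0.00746) and miR-126-3p (-0.99, adjusted p = 0.14) was not called, both members only through the DP arrays. miR-223-5p and miR-126-5p were detected on 0 of the 6. Of 3 erythroid markers, the sum was 0.29, 0.02 and 0.51 on ES 1, ES 2 and ES 3 and 0.02 to 0.04 on the DP arrays; miR-451, a miRNA of red blood cells, was at -1.84, -5.54 and -1.13 against -5.75 to -4.82 (adjusted p = 0.13), and miR-144-5p was detected on 0 of the 6. Of 14 endothelial and stromal markers 12 were detected on 0 ES arrays, with sums of 0.01 to 0.08 in ES and 0.02 in DP, and miR-143-3p, miR-145-5p and miR-199a-3p were on 0 of the 6. miR-10a-5p was at -3.99 on ES 3 and at the floor on the other ES and DP arrays. miR-126-3p was detected on 1 ES array and 3 DP arrays. Of 8 epithelial markers 6 were on 0 ES arrays (sums 0.01 to 0.05 in ES and 0.03 in DP), with miR-141-3p higher by 0.89 (adjusted p = 0.0474) and miR-200a-3p, miR-205-5p and miR-375-3p on 0 of the 6. miR-200c-3p, which was not tested, was detected on 2 ES arrays and 0 DP arrays. Of 6 B-cell and spleen lymphocyte markers, none of which is specific, the sums were 0.21, 0.05 and 0.50 in ES and 0.36 to 0.41 in DP. Of 7 liver, muscle and brain markers 6 were on 0 ES arrays, with sums of 0.003 to 0.09 in ES and 0.04 to 0.07 in DP. miR-9-5p was detected on ES 1 (-3.43) and ES 3 (-4.78) and on 0 DP arrays. The other way, miR-206-3p and miR-122-5p were detected on 0 ES arrays and on 3 and 1 DP arrays. The part of these cells in the rises that were highest on ES 3 was not tested.

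Each slide held both groups, with ES 1, ES 2 and DP 1 on slide 1 and ES 3, DP 2 and DP 3 on slide 2. All 104 called members kept their direction in both slides. The slides split the same arrays that gave the calls, so this agreement was largely fixed and is no replication. Of the 104, 45 were not detected on all 6 arrays. miR-21-5p was higher by 2.73 within slide 1 and 4.28 within slide 2. miR-181a-5p was lower by 4.12 in slide 1 and 2.03 in slide 2, miR-342-3p was higher by 1.74 and 3.05, and miR-26a-5p was lower by 3.60 and 1.30. In each slide 1 group has a single array, assumed to vary like the others. Within slide 1 that spread came from the ES and LS arrays, and within slide 2 from the DN and DP arrays. Since the ES arrays varied more than the DP arrays, no miRNA is described here by its call within a slide. Counts of such calls appear only among the processing settings, where the same limit holds. With slide as a block over all 12 arrays 104 of the tested miRNAs were called, 28 higher and 76 lower.

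**Figure D5:**
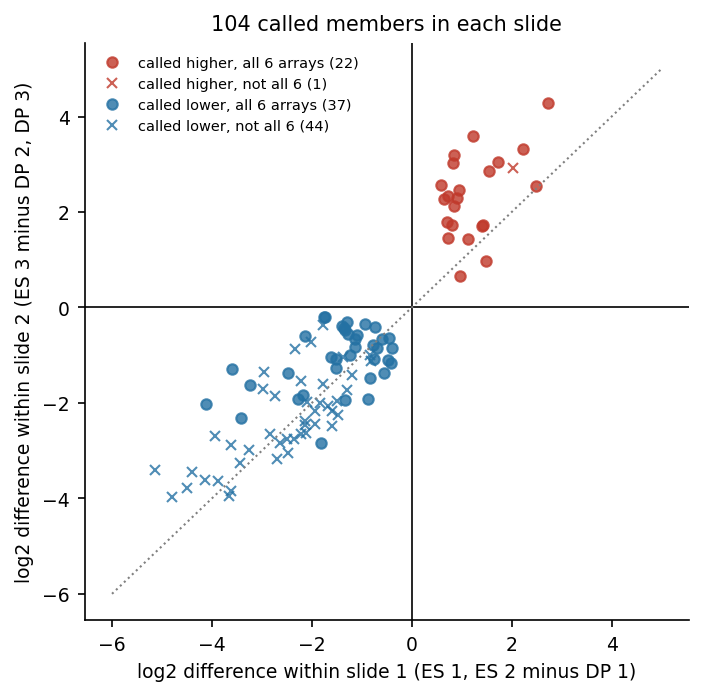
Log2 difference of the 104 called members within slide 1 (ES 1 and ES 2 minus DP 1, horizontal) and within slide 2 (ES 3 minus DP 2 and DP 3, vertical); red is called higher, blue called lower, crosses were not detected on all 6 arrays. All points lie at the lower left or upper right of the axes; the dotted line marks equal differences. The calls came from these same arrays, so agreement in sign was largely fixed.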

How the data were processed

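Per the file headers, Agilent Feature Extraction 10.7.3.1 quantified the scans, and the deposited scanner files hold a background-subtracted intensity for each spot. The deposited value table of the authors is on the log2 scale with a median of 3.29 in every column, as quantile normalization gives; it served as an alternative. Tools listed in the submitters' processing notes are GCOS, MAS5, RMA and affy, with no version.

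Control and outlier spots (4.03 to 8.60% per array) were removed. Signals were averaged first over spots, then over the probes of a miRNA. Each array was scaled to the 75th percentile of 133 mouse miRNAs detected on all 12 primary arrays, with a floor at -7.77 (the median over arrays of the lowest scaled signal among detected miRNAs), before log2 values were taken. Detection is counted as the software marks it, and a miRNA is well above background where at least 50% of the kept spots of 1 probe carry that mark. For a lower bound, no array of the dim group was let below its own dimmest signal well above background. limma 3.58.1 (R 4.3.3) fitted the 12 primary arrays with 1 mean per group, and p-values were adjusted by the Benjamini-Hochberg method over 268 miRNAs. The fit was tested on simulated data in which each miRNA had the same spread in all groups. The effect of the larger spread of the ES arrays was therefore not tested. The cell line array was left out.

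The members and lists were chosen with earlier results of these data known. Named are the 12 largest called rises and falls among members well above background on at least 1 array of each group, called members of the lists (at most 4 Sfmbt2-type examples with the largest change, and others as arm pairs), marker miRNAs, the 8 strongest signals, and, among members detected on all 3 arrays of one group and none of the other, the 8 with the largest bounds. miR-32-3p and other miRNAs outside the rule were named after their values were seen. The normexp alternative used median pixel intensities, since mean ones were not used here. Same-numbered ES and DP arrays did not deviate together (r = 0.04, -0.21 and -0.16), so numbers were not treated as pairs. Gene positions of GRCm38.p6 served only to find neighbours; none are printed, as the array's build is another.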

Additional observations from a re-analysis of the deposited data

Results flagged for a closer look

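The array of the cultured T-ALL line, which the comparison does not use, detected 12 viral miRNA names, above the 8 on each DP array.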

How the results depend on the processing

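Of the named miRNAs' values under the alternatives, 1791 kept direction and call, 237 lost the call, 3 gained it and 7 turned: when scaled over all mouse miRNAs let-7a-5p was at 0.049, let-7b-5p at 0.099, let-7d-5p at 0.24, let-7f-5p at 0.29, let-7g-5p at 0.19, let-7i-5p at 0.20 and miR-301a-3p at 0.053. The main counts were 111 called, 30 higher and 81 lower, with 22 and 37 among members detected on all 6 arrays. Scaling over all mouse miRNAs gave 96 higher and 43 lower (58 and 8), quantile normalization 61 and 66, normexp 69 in all (17 and 52), and the values deposited by the authors gave 65 and 73 (38 higher). Scaling over miRNAs well above background gave 52 and 68 (35 higher), and centring on the members detected on all 6 arrays 41 and 79. A floor 4 times higher gave 18 higher and one at the ES 1 detection level 17. No filter gave 12 higher (7), miRNAs detected on all 12 arrays 58 in all, 37 lower, and those detected on all 6 arrays 60 in all, 37 lower; these test other numbers of miRNAs. The 6 arrays alone gave 12 higher and 23 lower of those members. Within slide 1, 44 were called, 4 higher and 40 lower (3 and 15), and within slide 2, 208, 103 higher (55). The within-slide counts are listed only as settings, since 1 group has a single array in each slide. Within slide 2 that array is ES 3, judged by the spread of the DN and DP arrays. With a replicate block 51 were called, 9 higher and 42 lower (7 and 10), from numbers that do not pair the samples. Leaving out 1 array gave 80 to 130 called, 13 to 41 higher, 65 to 92 lower, and 8 to 29 higher and 26 to 38 lower among members detected on all 6; DP 3 gave the lowest counts of rises, 13 and 8, and DP 1 gave 19 and 13. The difference in detected miRNAs ranged from -57.3 to 9.17, positive without ES 1. Where not stated, the cause was not tested. The settings named for well above background, centring, the ES 1 floor, the slide block without ES 1 (31 higher, 72 lower) and detection on all 6 arrays were chosen after seeing the data. Dim signals limit the data most on ES 1, whose lowest signal well above background was -5.85 against -7.77 on ES 3.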
